A study of Rattus norvegicus with 40 samples.

Results

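Of the 31715 transcripts quantified by RNA sequencing in heterozygous SHR-Tti2+/- rats and wild-type rats of the same litters, 6 were followed here across every tissue of the study. They were chosen because the genotypes differed in the soleus muscle with some of the smallest p-values of that tissue, so the soleus difference is given below as a description, with no test resting on it. The spontaneously hypertensive rat (SHR/OlaIpcv) is an inbred strain with high blood pressure and insulin resistance. SHR-Tti2+/- rats are heterozygous for a small frameshift deletion in the first exon of Tti2, made with a zinc-finger nuclease, present in all tissues and kept as 1 line, and the wild-type rats are littermates that carry 2 intact copies. RNA was read in the soleus, perirenal fat (named peritoneal in the labels), liver and hippocampus with 5 rats per tissue and genotype, giving 40 samples from 12 rats, 6 of each genotype. A rat number shared by the genotypes marks different animals, while the same number within a genotype marks the same rat in different tissues. The study describes the compared SHR-Tti2+/- rats as male. No treatment is named in the labels, and the age of the sequenced rats was not given in the sources used here.

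Tti2, Tti1 and Telo2 form a chaperone complex that helps newly made kinases of the PIKK family, among them mTOR, ATM, ATR and SMG1, to fold and to stay stable. These kinases act in nutrient sensing, DNA repair and the decay of faulty mRNA. The soleus is a postural muscle of the lower leg made mostly of slow, oxidative fibres, and skeletal muscle is a main site of insulin-stimulated glucose uptake.

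The deposited tables pair no transcript with a gene name, and none of the IDs (0) was found in a RefSeq table of 47357 rat genes on assembly GRCr8. The 6 transcripts are therefore named by their Ensembl IDs, with no statement of what they encode, and the level of Tti2 itself and the markers of muscle, fat and other cells were not analysed here. Their lengths spanned a wide range: 1300 bases for ENSRNOT00000026871.4, 1948 for ENSRNOT00000015109.2, 2527 for ENSRNOT00000018057.5, 3125 for ENSRNOT00000014770.7, 3354 for ENSRNOT00000016997.7 and 13677 for ENSRNOT00000048141.5. The estimated counts, which divide a read among the transcripts it matches, were whole, within 1e-06, in all 40 samples for ENSRNOT00000018057.5 and ENSRNOT00000026871.4. They were fractional in all 40 samples for ENSRNOT00000014770.7 and ENSRNOT00000048141.5, in 35 for ENSRNOT00000015109.2 and in 33 for ENSRNOT00000016997.7. The values of these last 4 therefore depend on how reads were shared with other transcripts.

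The total estimated count was between 19176393 and 32713126 per sample, and between 23384741 and 27426073 in the soleus. The correlation of log2 values with the mean of the other samples of the tissue was 0.956 to 0.966 in the soleus. In the hippocampus the wild-type rat 2 stood apart, with a correlation of 0.948 against 0.969 to 0.975 in the other samples and with the deepest library of the series. The study left out a hippocampus sample as an outlier, without naming it in the methods, whereas all 5 per genotype were kept here. Tissue orders and genotype contrasts that change without rat 2 are given with and without it. In bulk tissue, fewer cells of a type and less RNA per cell cannot be told apart. Transcripts restricted to 1 tissue in wild-type rats, a group set after the data were seen (at least 10 TPM and at least 50-fold over each other tissue), were summed in the soleus as a measure of other tissue in the sample. The 68 fat-restricted transcripts summed to 248 to 568 TPM in wild-type and 250 to 395 TPM in SHR-Tti2+/- soleus (two-sided exact permutation p = 0.373). The 201 soleus-restricted transcripts summed to 291583 to 324951 TPM in wild-type and 243930 to 309639 TPM in SHR-Tti2+/- soleus (two-sided exact permutation p = 0.135). Both groups were picked on wild-type levels that included these soleus samples, so the tests cannot decide whether tissue makeup differed between genotypes. ENSRNOT00000015109.2, which was chosen on the soleus contrast, itself meets the limits of the soleus-restricted group. The part of tissue makeup in the differences below was not tested.

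The liver had the lowest mean level for all 6 transcripts, for some of them with overlap with the next tissue. The tissue with the highest level differed among the 6. Levels are given in TPM, which is scaled per transcript length and library, as the mean of the 5 wild-type rats. ENSRNOT00000015109.2 was close to absent outside muscle. Its level was 28.5 ± 3.35 TPM (SD, n = 5) in the soleus and 0.0848 ± 0.0519 in perirenal fat, a 336-fold difference that rests on 1.02 to 6.22 estimated counts per fat sample. In wild-type liver it had between 0 and 3.06 counts, with 4 of 5 samples at or under the floor of 3 counts, and in wild-type hippocampus between 0 and 3.32 counts. The ranges of perirenal fat, hippocampus and liver overlapped for this transcript.

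ENSRNOT00000018057.5 was a transcript of fat in these tissues. Perirenal fat held 29.9 ± 2.67 TPM (SD, n = 5), which was 8.05-fold over the soleus at 3.71 ± 0.519 with no overlap. The soleus and the hippocampus, at 2.81 ± 0.752 TPM, overlapped through wild-type hippocampus rat 2 alone, and without it the hippocampus was at 2.29 to 2.59 TPM and below every soleus sample. The liver was lowest at 1.80 ± 0.356 TPM and below every hippocampus sample. ENSRNOT00000048141.5, the longest of the 6, was also highest in perirenal fat, at 2.82 ± 0.0778 TPM. That was 2.51-fold over the hippocampus (1.12 ± 0.148), which was followed by the soleus (0.671 ± 0.125) and the liver (0.125 ± 0.0242), and no neighbours in this order overlapped. These 2 transcripts were both higher in SHR-Tti2+/- soleus. The fat-restricted transcripts summed there to 250 to 395 TPM (median 314), within the 248 to 568 TPM of wild-type soleus (median 338). The part of fat tissue in these differences was not tested.

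ENSRNOT00000014770.7 was highest in the hippocampus, at 35.8 ± 4.31 TPM (SD, n = 5). Perirenal fat was next, 2.63-fold lower at 13.6 ± 1.19, then the soleus at 8.38 ± 1.11 and the liver at 3.69 ± 0.408, with no overlap between neighbours. ENSRNOT00000026871.4 was at 15.3 ± 1.42 TPM in the hippocampus and 13.3 ± 3.98 in perirenal fat, which overlapped. The soleus, at 3.89 ± 0.41, was below both, and overlapped the liver at 2.44 ± 1.07. ENSRNOT00000016997.7 was low everywhere, from 0.639 ± 0.157 TPM in the hippocampus through 0.400 ± 0.0881 in the soleus and 0.292 ± 0.127 in perirenal fat to 0.266 ± 0.104 in the liver, and no neighbours in that order stood apart. The soleus was the highest tissue for 1 of the 6 transcripts, ENSRNOT00000015109.2.

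**Figure D1:**
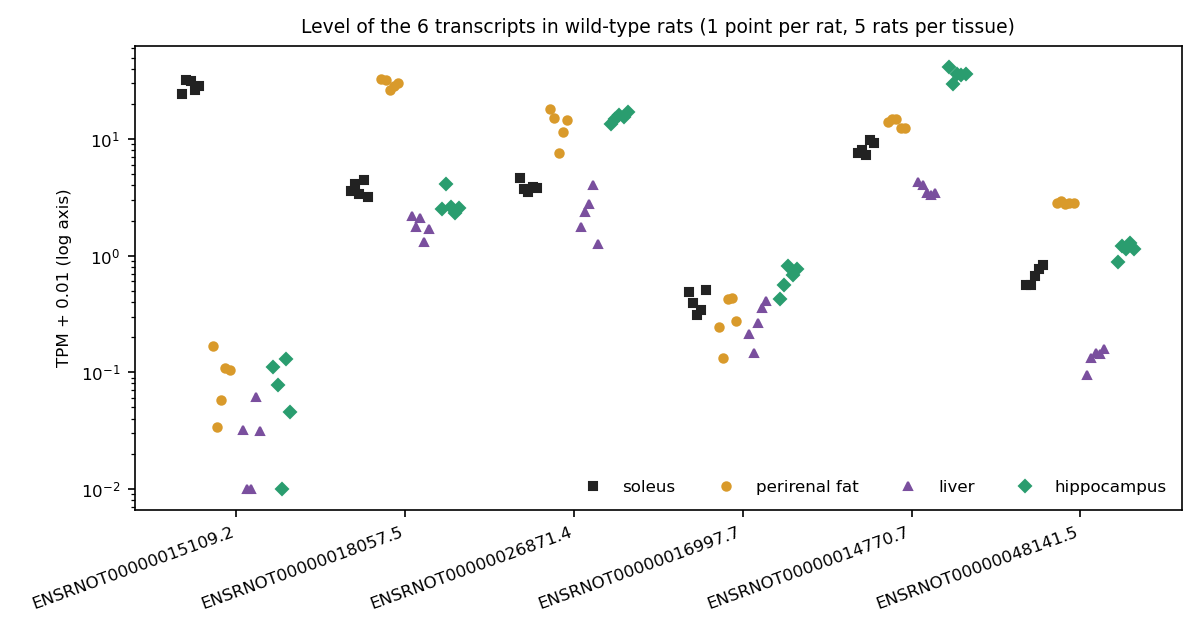
Level of each transcript in wild-type rats as TPM + 0.01 on a log axis, with 1 point per rat, 5 rats per tissue, and tissues marked by colour and shape. ENSRNOT00000015109.2 sits near 28.5 TPM in the soleus and at or near 0 elsewhere, ENSRNOT00000018057.5 and ENSRNOT00000048141.5 are highest in perirenal fat, and ENSRNOT00000016997.7 lies under 1 TPM in every tissue.

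In the soleus, 4 of the 6 transcripts were higher and 2 were lower in SHR-Tti2+/- rats, and for each of the 6 every SHR-Tti2+/- rat lay outside the range of the wild-type rats. Genotypes that did not overlap were found for 1.3% of the 18120 transcripts tested in this tissue, and an unadjusted p under 0.05 for 6.84%. As the transcripts were chosen on this contrast, nothing is read from their share. Values per rat are TMM-normalized CPM (counts scaled to library size) in the order of rats 2, 3, 4, 5 and 6.

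ENSRNOT00000015109.2, the transcript found almost only in muscle, measured 48.6, 66.0, 61.3, 48.1 and 52.2 CPM in the wild-type rats. The SHR-Tti2+/- rats measured 27.8, 29.2, 22.4, 29.8 and 35.1 CPM. All 5 SHR-Tti2+/- rats were below the lowest wild-type rat, and the lowest wild-type value was 1.37 times the highest SHR-Tti2+/- value. The mean was 55.3 ± 7.99 CPM in wild-type and 28.8 ± 4.57 CPM in SHR-Tti2+/- rats (SD, n = 5 each), a log2 fold change of -0.94 (SE 0.13), with 1203 to 1588 estimated counts per wild-type sample and 563 to 898 per SHR-Tti2+/- sample. It was the most strongly counted of the 6 in this muscle.

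ENSRNOT00000014770.7 was the other transcript that was lower. The wild-type rats measured 23.9, 26.1, 22.7, 28.9 and 27.0 CPM. In the SHR-Tti2+/- rats it measured 16.7, 15.9, 18.1, 18.4 and 19.8 CPM. The lowest wild-type value was 1.15 times the highest SHR-Tti2+/- value, the narrowest gap of the 6. The log2 fold change was -0.53 (SE 0.081), a 1.45-fold difference that lies under the 1.5-fold limit used for calls.

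ENSRNOT00000016997.7, the scarcest of the 6, had the largest fold change. It measured 1.46, 1.16, 0.868, 0.927 and 1.38 CPM in the wild-type rats and 3.13, 3.56, 2.38, 2.84 and 4.65 CPM in the SHR-Tti2+/- rats. The lowest SHR-Tti2+/- value was 1.64 times the highest wild-type value, the widest gap of the 6. The log2 fold change was 1.51 (SE 0.23) on 20.4 to 35.7 estimated counts per wild-type sample and 60.2 to 119 per SHR-Tti2+/- sample.

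ENSRNOT00000026871.4, for which no read was divided among transcripts, measured 5.09, 4.28, 3.82, 4.02 and 3.94 CPM in wild-type soleus. The SHR-Tti2+/- rats measured 7.10, 8.15, 7.86, 5.92 and 7.46 CPM. Rat 5 was the lowest SHR-Tti2+/- rat and still lay 1.16 times above wild-type rat 2. The log2 fold change was 0.79 (SE 0.12), with 88 to 126 counts per wild-type and 142 to 206 per SHR-Tti2+/- sample.

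ENSRNOT00000018057.5, the transcript highest in fat, measured 8.69, 10.2, 7.99, 9.82 and 7.02 CPM in the wild-type rats. It measured 12.9, 13.7, 14.8, 14.1 and 15.7 CPM in the SHR-Tti2+/- rats. The SHR-Tti2+/- values were close together, with a lowest value 1.27 times the highest wild-type value. Its log2 fold change was 0.70 (SE 0.10), on whole counts of 178 to 286 and of 306 to 401 per sample. ENSRNOT00000048141.5, the longest transcript, measured 7.28, 7.48, 8.55, 9.31 and 10.1 CPM in the wild-type rats and 12.3, 12.5, 12.7, 12.4 and 14.8 CPM in the SHR-Tti2+/- rats. In this transcript 4 SHR-Tti2+/- rats were nearly equal and rat 6 was above them, and the log2 fold change was 0.60 (SE 0.10).

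**Figure D2:**
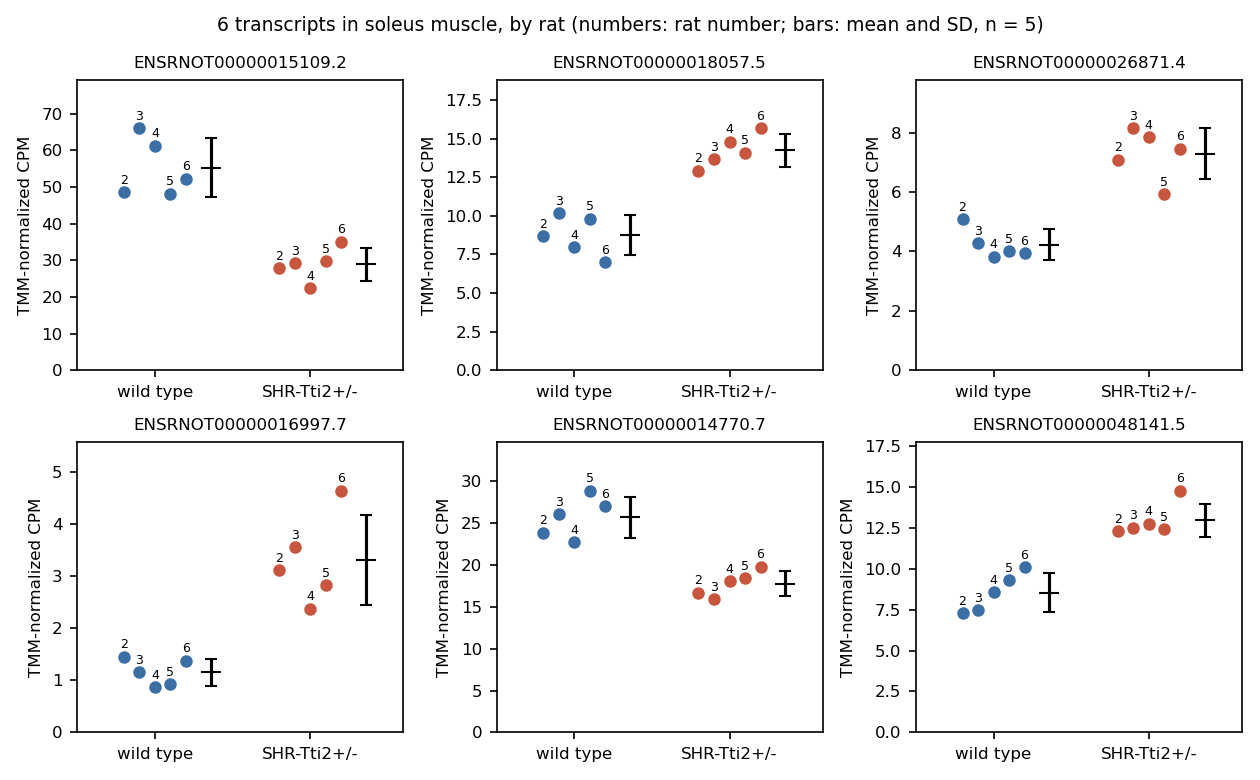
TMM-normalized CPM of the 6 transcripts in the soleus, 1 panel per transcript with its own axis from 0, points labelled with the rat number, and bars for the mean and SD of 5 rats. In every panel the genotypes do not overlap, with a gap from 1.15 times (ENSRNOT00000014770.7) to 1.64 times (ENSRNOT00000016997.7).

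These differences chose the transcripts, and none of the 6 met both limits for a call in the edgeR quasi-likelihood test, an adjusted p under 0.1 and a fold of at least 1.5. Their adjusted p-values in edgeR were between 0.140 and 0.227, at ranks 2 to 6 and 9 of the tissue by p-value. The call rate of the tissue was 0.00552%, which is 1 transcript, ENSRNOT00000032467.4, at rank 1 with a log2 fold change of -0.90 (SE 0.072) and an edgeR adjusted p of 0.00181. The smallest fold among the 6 was 1.45, for ENSRNOT00000014770.7 at rank 6, and ENSRNOT00000048141.5 at rank 9 had a 1.51-fold difference. The transcripts at ranks 7, 8 and 10, with folds of 1.31, 1.30 and 1.27, were not among the 6. DESeq2 called 5 of the 6, all but ENSRNOT00000014770.7, against a call rate of 0.221% or 40 transcripts. Without wild-type rat 2 edgeR called 2 of the 6, ENSRNOT00000015109.2 and ENSRNOT00000026871.4, with a call rate of 0.028% or 5 transcripts. Without SHR-Tti2+/- rat 6 it called 1, ENSRNOT00000015109.2, with a call rate of 0.0112% or 2 transcripts. Where every sample had to hold at least 10 counts, edgeR called 4 of the 6, with a call rate of 0.0351% or 5 of 14236 transcripts. Among all tested soleus transcripts whose genotypes did not overlap, 145 were higher and 91 lower on the CPM scale, and 83 were higher and 169 lower on the log2(TPM + 0.5) scale. The direction of each of the 6 was the same on both scales.

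Outside the soleus the genotype contrast was not used in the choice, and 16 pairs of transcript and tissue had enough counts to be tested. Of these, ENSRNOT00000015109.2 in perirenal fat passed the count filter mainly through SHR-Tti2+/- samples, where it was higher. edgeR called none of the 16 (call rate of all transcripts 0.0% in perirenal fat, 0.206% in the liver and 0.00483% in the hippocampus). At an unadjusted p under 0.05, edgeR found 1 of 6 in perirenal fat, 0 of 5 in the liver and 1 of 5 in the hippocampus, against 6.96%, 10.1% and 4.22% of all transcripts tested. Without wild-type rat 2 the hippocampus gave 2 of 5, against 5.35%. DESeq2 called none of the 12 pairs to which it gave an adjusted p and gave none to the other 4, with call rates of 0.0989% in perirenal fat, 0.646% in the liver and 0.0531% in the hippocampus. The direction of the soleus was seen in 9 of the 16, as 4 of 6 in perirenal fat, 3 of 5 in the liver and 2 of 5 in the hippocampus, and samples of different tissues partly came from the same rats. In 5 of these 9 the sign turned when 1 rat was left out. Two-sided exact permutation tests of CPM gave p between 0.00794 and 0.992 over the 16, with a smallest Benjamini-Hochberg adjusted exact p of 0.127. With 5 rats per genotype no exact p below 0.00794 is possible.

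In the hippocampus ENSRNOT00000018057.5 was lower in SHR-Tti2+/- rats, the opposite of its direction in the soleus. The wild-type rats 1, 2, 3, 5 and 6 measured 4.45, 7.58, 4.34, 3.90 and 4.26 CPM. The SHR-Tti2+/- rats 1 to 5 measured 2.89, 3.20, 3.56, 2.51 and 3.37 CPM. The genotypes did not overlap in 1 of the 16 pairs, this one, against 1.18% of all transcripts tested in the hippocampus, 1.32% in perirenal fat and 2.56% in the liver, and the lowest wild-type value was 1.10 times the highest SHR-Tti2+/- value. The log2 fold change was -0.66 (SE 0.20) with an unadjusted edgeR p of 0.00739 and an edgeR adjusted p of 0.939. The two-sided exact permutation p was 0.00794, and 0.127 after Benjamini-Hochberg adjustment over the 16 tests, with 5 of 5 SHR-Tti2+/- rats below the wild-type range. Wild-type rat 2, the sample that stood apart, was the highest, and without it the log2 fold change was -0.45 (SE 0.13), with an unadjusted edgeR p of 0.0064 and no overlap. These values rest on 76 to 246 whole counts per wild-type and 53 to 72 per SHR-Tti2+/- sample.

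In perirenal fat, the tissue where it was most abundant, ENSRNOT00000018057.5 measured 63.8, 61.0, 53.0, 59.2 and 60.4 CPM in wild-type rats 1 to 5. The SHR-Tti2+/- rats 1 to 5 measured 57.5, 51.5, 59.1, 65.2 and 75.5 CPM. The genotypes overlapped, and the log2 fold change was 0.05 with a range of -0.14 to 0.24 over 2 standard errors on either side (edgeR adjusted p = 0.940). In the liver the log2 fold change of this transcript was 0.09, with a range of -0.19 to 0.37 (edgeR adjusted p = 0.895), and every SHR-Tti2+/- rat lay within the wild-type range.

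**Figure D3:**
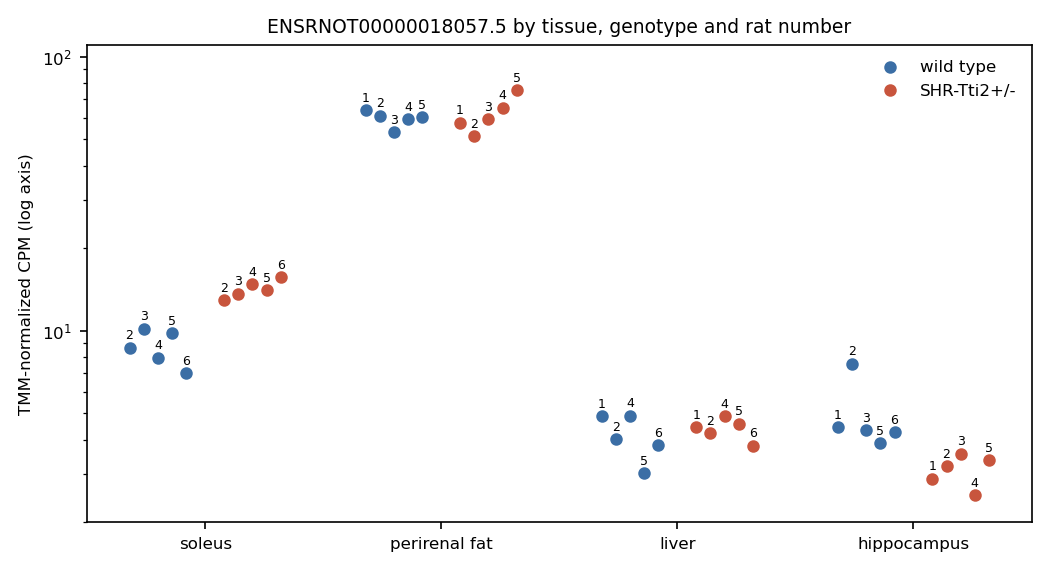
ENSRNOT00000018057.5 in every sample, as TMM-normalized CPM on a log axis, by tissue and genotype, with each point labelled by rat number. SHR-Tti2+/- rats lie above all wild-type rats in the soleus, below all of them in the hippocampus, and among them in perirenal fat and the liver.

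ENSRNOT00000048141.5 had a log2 fold change of the soleus sign in all 3 other tissues, with overlapping genotypes in each. In the liver the sign turned, to -0.026, without wild-type rat 1, and 3 of 5 SHR-Tti2+/- rats there were below the wild-type median. In perirenal fat the wild-type rats 1 to 5 measured 30.9, 31.9, 31.4, 33.1 and 31.8 CPM and the SHR-Tti2+/- rats 38.0, 31.1, 31.5, 38.1 and 42.3 CPM. SHR-Tti2+/- rats 1, 4 and 5 were above the wild-type range, and rats 2 and 3 lay within it. The log2 fold change was 0.19 (SE 0.083), with an unadjusted edgeR p of 0.0460, an edgeR adjusted p of 0.716 and a two-sided exact permutation p of 0.135. In the hippocampus it was 0.22 (SE 0.11), with all 5 SHR-Tti2+/- rats above the wild-type median and 3 above the wild-type maximum (two-sided exact permutation p = 0.0794, adjusted 0.279). Without wild-type hippocampus rat 2 it was 0.27 (SE 0.12), with an unadjusted edgeR p of 0.0450 and an edgeR adjusted p of 0.925. The liver gave 0.09 (SE 0.18, edgeR adjusted p = 0.922).

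ENSRNOT00000016997.7 had a log2 fold change of the soleus sign in the other tissues, at low counts, and the sign turned in the liver and the hippocampus with 1 rat left out. In perirenal fat it measured 0.577, 0.296, 1.06, 1.13 and 0.648 CPM in wild-type rats 1 to 5 and 1.29, 1.13, 1.38, 1.14 and 0.732 CPM in SHR-Tti2+/- rats 1 to 5. All 5 SHR-Tti2+/- rats were above the wild-type median and 3 above the wild-type maximum. The log2 fold change was 0.61 (SE 0.35), with an edgeR adjusted p of 0.783 and a two-sided exact permutation p of 0.0635. In the hippocampus the log2 fold change was 0.20 with a range of -0.36 to 0.75 over 2 standard errors on either side, with 2 of 5 SHR-Tti2+/- rats above the wild-type median, and it was -0.072 without SHR-Tti2+/- rat 1. In the liver it was 0.07 with a range of -0.80 to 0.93, and the lowest value with 1 rat left out was -0.32.

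ENSRNOT00000014770.7, lower in the soleus, varied little elsewhere. Its log2 fold change was -0.05 (range -0.16 to 0.07 over 2 standard errors on either side) in perirenal fat, 0.16 (-0.05 to 0.37) in the liver and 0.06 (-0.10 to 0.22) in the hippocampus, with edgeR adjusted p-values of 0.910, 0.654 and 0.945. In the liver 3 of 5 SHR-Tti2+/- rats were above the wild-type maximum, which is the other direction than in the soleus. Without wild-type rat 2 the hippocampus value was 0.0097 (SE 0.071). The difference between tissues was not tested.

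ENSRNOT00000026871.4, higher in the soleus, had no higher mean CPM in any other tissue. In the hippocampus the wild-type rats 1, 2, 3, 5 and 6 measured 11.6, 13.3, 13.1, 12.8 and 14.1 CPM and the SHR-Tti2+/- rats 1 to 5 measured 10.6, 8.37, 11.8, 12.9 and 12.1 CPM. All 5 SHR-Tti2+/- rats were below the wild-type median and 2 were below the wild-type minimum, with a log2 fold change of -0.22 (SE 0.11) and a two-sided exact permutation p of 0.0714, or 0.279 after adjustment. The liver gave -0.36 (SE 0.30) on 35 to 145 counts per wild-type sample, and perirenal fat gave -0.0025 (SE 0.20). ENSRNOT00000015109.2 could be tested in perirenal fat but not in the liver or the hippocampus. The fat samples that reached the 5 counts of the filter were SHR-Tti2+/- rats 1 to 4, at 5.17 to 8.23, and wild-type rat 1, at 6.22. It passed the filter mainly through the genotype where it was higher, and was not tested when any 1 of these rats was left out. In fat it had 1.02 to 6.22 estimated counts in wild-type and 3.06 to 8.23 in SHR-Tti2+/- samples, with a log2 fold change of 0.83 (SE 0.50, edgeR adjusted p = 0.792), a level too low to compare with its muscle level. The 201 soleus-restricted transcripts summed in fat to 120 to 230 TPM in wild-type rats (median 146). In SHR-Tti2+/- fat they summed to 134 to 1212 TPM (median 142), with 1 rat above the wild-type maximum. The part of muscle tissue in this fat value was not tested.

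**Figure D4:**
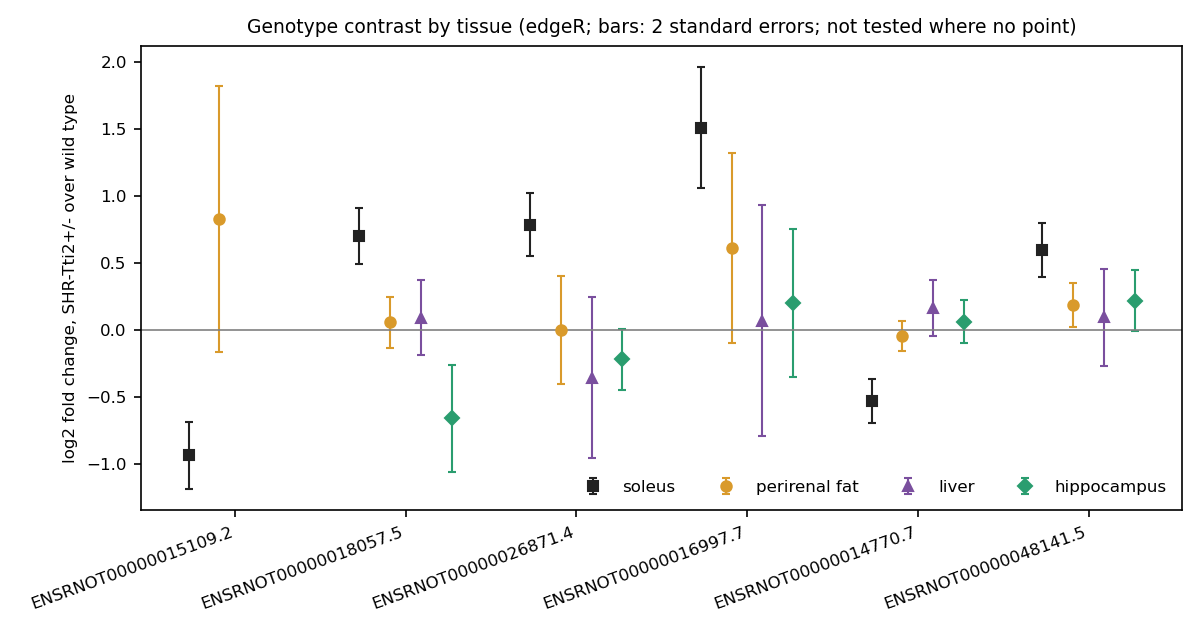
Log2 fold change of SHR-Tti2+/- over wild type from edgeR for each transcript and tissue, with bars of 2 standard errors and no point where the transcript was not tested. The soleus squares lie between -0.94 and 1.51 and were the basis of the choice, while of the 16 other points ENSRNOT00000018057.5 in the hippocampus, at -0.66, and ENSRNOT00000048141.5 in perirenal fat, at 0.19, have bars that do not reach 0.

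Among rats of the same genotype, the 6 transcripts varied in the soleus by a pooled SD of 0.13 (ENSRNOT00000014770.7) to 0.34 (ENSRNOT00000016997.7) on the log2 CPM scale, against a median of 0.25 over all transcripts tested there. In the other tissues ENSRNOT00000016997.7 varied most of the transcripts present throughout, with 0.57 in perirenal fat, 0.71 in the liver and 0.41 in the hippocampus. ENSRNOT00000014770.7 varied least, with 0.088, 0.17 and 0.13, below the median of all transcripts in each of these tissues (0.21, 0.22 and 0.22). ENSRNOT00000026871.4 was steady in the soleus and the hippocampus, with an SD of 0.17 and 0.19, and more variable in perirenal fat and the liver, with 0.37 and 0.51.

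To see whether the 6 moved together from rat to rat, each soleus value was taken as its deviation from the mean of its genotype on the log2 CPM scale, and the 15 pairs of transcripts were correlated over the 10 rats. A genotype alone has 5 rats, too few for a correlation of its own. Pearson's r lay between -0.37 and 0.58 with a median of 0.12, and 9 of 15 were positive. Spearman's rho lay between -0.36 and 0.54. None of the 15 had an exact permutation p under 0.05, and the smallest Benjamini-Hochberg adjusted exact p was 0.939. On the log2(TPM + 1) scale 12 of 15 were positive, 1 pair had an exact permutation p under 0.05, and the smallest adjusted exact p was 0.444. The highest r, 0.58, joined ENSRNOT00000014770.7, which was lower in SHR-Tti2+/- rats, with ENSRNOT00000048141.5, which was higher (rho 0.54, exact permutation p = 0.116 for r and 0.173 for rho, adjusted 0.939 for r and 1 for rho), and r was 0.77 without the 2 rats farthest from the median and 0.79 on the log2(TPM + 1) scale. When such 2 rats were left out, r kept its sign in 8 of the 15 pairs on the log2 CPM scale. On the log2(TPM + 1) scale it did so in 4 of the 15. SHR-Tti2+/- rat 6 was above its genotype mean in all 6 transcripts, by 0.23 on average, and SHR-Tti2+/- rat 2 was below it in all 6. The wild-type rats were above the mean in 2 to 5 of the 6.

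**Figure D5:**
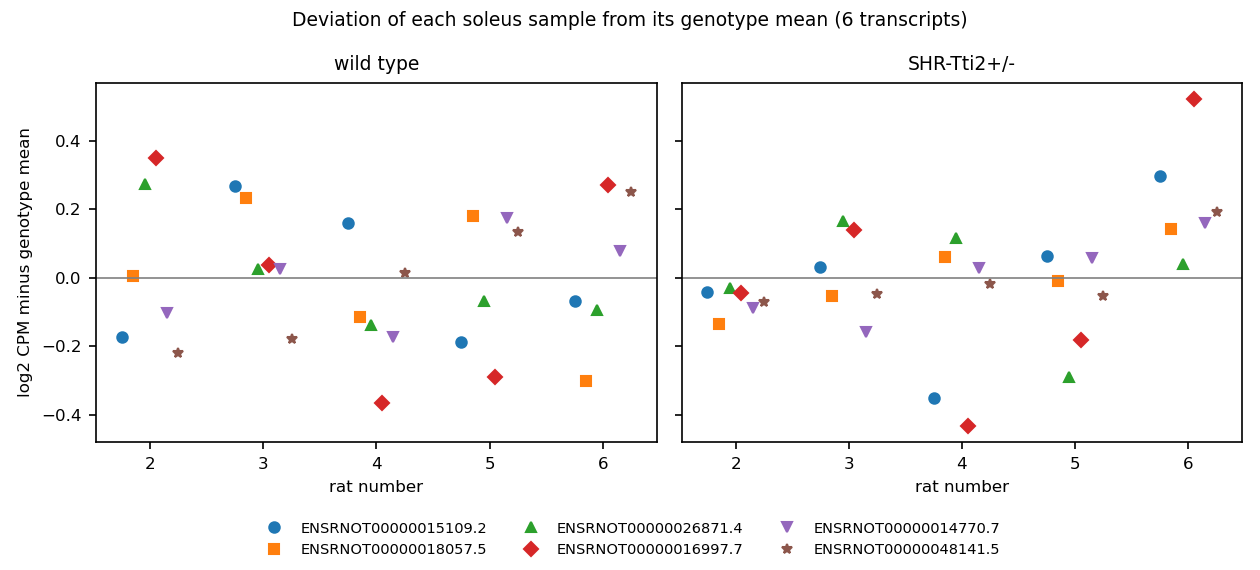
Deviation of log2 CPM from the genotype mean in the soleus, by rat number, with wild-type rats on the left, SHR-Tti2+/- rats on the right and 1 symbol per transcript. SHR-Tti2+/- rat 6 is above 0 for all 6 transcripts and SHR-Tti2+/- rat 2 below 0 for all 6, while the other rats have transcripts on both sides.

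The same deviations were compared between the soleus and another tissue of the same rat, in the 8 rats that gave both. Over the 16 relations r lay between -0.48 and 0.78 with a median of 0.047, and 9 were positive. The highest, 0.78 for ENSRNOT00000048141.5 in the soleus and the liver (rho 0.64, exact permutation p = 0.0451 for r and 0.122 for rho), had an adjusted exact p of 0.722 for r and 0.948 for rho and dropped to 0.47 without the 2 rats farthest from the median. ENSRNOT00000018057.5, whose genotype difference had opposite signs in the soleus and the hippocampus, gave r = -0.18 and rho = -0.36 between these tissues within genotypes (exact permutation p = 0.790 for r and 0.465 for rho, adjusted 0.903 and 0.948). Without the 2 rats farthest from the median this r was -0.81, so its size depended on few rats. None of the 16 passed an adjusted p of 0.05.

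For each of the 6, the transcript most like it was sought over the 30 samples of the other 3 tissues by Pearson's r of log2(TPM + 1). The search took transcripts with a mean of at least 1 TPM over all 40 samples, the soleus included. These r describe shared tissue pattern, since the points share tissues and libraries. ENSRNOT00000014770.7 was closest to ENSRNOT00000023706.6 (r = 0.998), ENSRNOT00000018057.5 to ENSRNOT00000018533.7 (0.995), ENSRNOT00000048141.5 to ENSRNOT00000073919.2 (0.992) and ENSRNOT00000026871.4 to ENSRNOT00000068528.1 (0.980). The likeness was lower for the 2 with low values in those tissues, ENSRNOT00000016997.7 with ENSRNOT00000075286.3 (0.880) and ENSRNOT00000015109.2 with ENSRNOT00000013768.5 (0.794). The soleus entered the likeness only through this limit on mean TPM. There the log2 fold changes of these 6 neighbours lay between -0.07 and 0.44, with edgeR adjusted p-values of 0.857 to 0.998. ENSRNOT00000018533.7 gave 0.03 (SE 0.12) where its partner ENSRNOT00000018057.5 gave 0.70 (SE 0.10), and ENSRNOT00000023706.6 gave -0.07 (SE 0.092) where ENSRNOT00000014770.7 gave -0.53 (SE 0.081). As the 6 were chosen on the soleus contrast and the neighbours were not, nothing is read from the gap between partners.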

How the data were processed

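The authors made poly(A)-selected libraries that keep the strand, read them from 1 end, and quantified transcripts with kallisto (0.46.0 in the submitters' processing notes) against an Ensembl transcript set with sequence bias correction, choosing the samples of best RNA integrity. The deposited tables give, per transcript, an estimated count, often fractional, and a TPM, which kallisto scaled to effective length and library. The counts were rounded and each tissue was fitted alone with edgeR 4.0.16 in R 4.3.3 (TMM, quasi-likelihood test on genotype alone), keeping transcripts that reached 5 counts in 47% or more of the tissue's samples. Calls needed a Benjamini-Hochberg adjusted p under 0.1 and a fold of at least 1.5. Exact permutation tests ran over 252 assignments of 10 samples. Those for correlations permuted rats within genotypes, over 14400 arrangements in the soleus and 576 between tissues.

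The 6 transcripts and all lists were chosen with earlier results of these data known. The rule for naming took all 6, the transcript most like each, and ENSRNOT00000032467.4. Planned lists of cell markers and of the Tti2 pathway need gene names and were not run. Replicates were separate rats. No pair of samples in a group was closer than a chi-square of 6.38 per degree of freedom, so none was counted as a duplicate. A count of 3, the floor for a transcript near 0, corresponds to at most 0.155 CPM, and this covers counting error only. The alternatives were other size factors, DESeq2 1.42.0, limma 3.58.1 on log counts and on log2(TPM + 0.5), other filters and limits, a replicate block and leaving out each rat.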

Additional observations from a re-analysis of the deposited data

Results flagged for a closer look

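ENSRNOT00000018057.5 had opposite genotype differences in 2 tissues: its log2 fold change was 0.703 in the soleus, where all 5 SHR-Tti2+/- rats were above the wild-type range, and -0.663 in the hippocampus, where all 5 were below it. The hippocampus value had an edgeR adjusted p of 0.939 and a two-sided exact permutation p of 0.127 after adjustment over 16 tests. It was -0.45 without wild-type rat 2. The soleus value was part of the choice of this transcript, and the difference between the tissues was not tested.

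In 3 of 52 groups of 5 rats a single rat lay far from the other 4, and chance alone marks about 1 group in 20. ENSRNOT00000018057.5 in wild-type hippocampus had rat 2 at 7.58 CPM against 3.90 to 4.45 CPM, a gap that took a share of 0.852 of the group's range. ENSRNOT00000016997.7 in SHR-Tti2+/- hippocampus had rat 1 at 2.69 CPM against 1.14 to 1.48 CPM, with a share of 0.778. ENSRNOT00000048141.5 in SHR-Tti2+/- soleus had rat 6 at 14.8 CPM against 12.3 to 12.7 CPM, with a share of 0.818.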

How the results depend on the processing

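The number of the 6 transcripts called in the soleus depended on the test and the filter. It was 0 in edgeR (1 of 18120 transcripts called in all) and 5 in DESeq2 (40 of 18120). Where every sample had to hold at least 10 counts it was 4 (5 of 14236 called in all). With 1 rat left out it was 0 to 2 (1 to 5 called in all). As the 6 were chosen on this contrast, nothing is read from these counts. On the log2(TPM + 0.5) scale the soleus log2 fold changes of ENSRNOT00000016997.7 and ENSRNOT00000048141.5 were 0.82 and 0.35, since a pseudocount of 0.5 is large against their TPM. No log2 fold change in the soleus changed sign under any alternative run. The direction of each tissue difference in wild-type level given as a fold was the same with CPM over all 40 samples, with other sizes. Rat numbers mark different animals in the 2 genotypes, and the deviations of same-numbered soleus samples correlated by -0.12 to 0.03. With the number as a replicate block 0 of the 6 were called in the soleus (log2 fold change of ENSRNOT00000015109.2 -0.94).

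Values near 0 changed sign, and the cause was not tested. For ENSRNOT00000026871.4 in fat the log2 fold change was 0.00015 with median-of-ratios size factors, 0.00028 in DESeq2, 0.032 in limma on log counts, 0.050 on log2(TPM + 0.5), 0.0019 without the filter, 0.028 with the replicate block and -0.15 to 0.12 with 1 rat left out. For ENSRNOT00000016997.7 in the liver it was -0.042 in limma on log counts, -0.057 with the replicate block and -0.32 to 0.28 with 1 rat left out. Leaving out 1 rat gave -0.029 to 0.11 for ENSRNOT00000018057.5 in fat and -0.0043 to 0.16 in the liver, -0.026 to 0.15 for ENSRNOT00000048141.5 in the liver and -0.072 to 0.30 for ENSRNOT00000016997.7 in the hippocampus. On log2(TPM + 1) r changed sign to 0.18 for ENSRNOT00000015109.2 with ENSRNOT00000014770.7, to 0.20 and 0.14 for ENSRNOT00000018057.5 with ENSRNOT00000016997.7 and with ENSRNOT00000048141.5, and between the soleus and another tissue to -0.16 for ENSRNOT00000026871.4 (hippocampus) and to -0.10 (fat) and 0.0092 (hippocampus) for ENSRNOT00000048141.5.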
